A study of Homo sapiens with 8 samples.

Results

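The genes described here are 10 parts of the machinery that carries human cells from G1 into S phase: the cyclins CCNE1, CCNE2, CCND1 and CCND3, the kinases CDK2, CDK4 and CDK6, the phosphatase CDC25A, and the kinase inhibitors CDKN1B and CDKN2D. They were taken by gene symbol from a list of 10 names, drawn up with earlier results of these data known, and all 10 were found among the 55075 genes of the deposited tables. RNA came from HCT116 cells, an established human colon cancer line grown attached in McCoy's 5A medium, either wild type (WT) or with a knockout (KO) of FBXW7. Every sample was heated at 42 °C for 1 h. The heat shock libraries are labelled as taken upon heat shock, and the recovery libraries after a return to 37 °C for 2 h. The 4 groups, heat shock and recovery in WT and the same in KO, hold 2 libraries each, 8 in all, and no unheated group was analysed here. All groups therefore share the heat treatment, and the recovery comparisons start from heated cells. The sources used here do not say whether the KO is 1 clone, how it was made, or whether replicates were separate cultures. The p-values therefore cover the spread between these libraries alone, which may be technical. In bulk RNA of this kind, fewer cells in a cell cycle phase and less RNA per cell cannot be told apart.

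D-type cyclins bind CDK4 and CDK6 and begin the phosphorylation of the retinoblastoma protein, which frees E2F factors to switch on the genes of DNA replication. E-type cyclins then bind CDK2, which CDC25A activates by removing inhibitory phosphates. CDKN1B (p27) holds cyclin E-CDK2 inactive, and CDKN2D (p19-INK4d) binds CDK4 and CDK6. FBXW7 is the subunit of an SCF ubiquitin ligase that recognises phosphorylated cyclin E and MYC and sends them for degradation. Its known action on cyclin E is on the protein, whereas the values here are mRNA.

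Bases upstream of the CDC25A and CDK4 start sites are shown because these genes changed most in WT and in KO recovery, respectively, and because their windows hold letters bound by E2F factors and by MYC-type proteins. Both were read from RefSeq's GRCh38.p14 promoter table, 5′ to 3′ on the minus strand, the strand of both genes, and cover the 250 bases before the RefSeq start. In CDC25A (chr3:48188418-48188667) the capitals mark the letters TTTGGCGC, one of the E2F forms searched. In CDK4 (chr12:57752311-57752560) they mark each CACGTG, the E-box.
CDC25A: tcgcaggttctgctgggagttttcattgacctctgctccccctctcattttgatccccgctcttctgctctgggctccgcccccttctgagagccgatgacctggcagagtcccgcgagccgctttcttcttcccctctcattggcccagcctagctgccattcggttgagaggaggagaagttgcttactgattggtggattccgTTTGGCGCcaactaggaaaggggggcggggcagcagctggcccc
CDK4: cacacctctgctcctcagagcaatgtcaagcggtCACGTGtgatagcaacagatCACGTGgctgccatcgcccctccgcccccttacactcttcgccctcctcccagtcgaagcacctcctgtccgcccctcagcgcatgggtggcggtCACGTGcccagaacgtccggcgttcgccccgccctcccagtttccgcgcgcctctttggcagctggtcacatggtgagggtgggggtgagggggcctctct

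The search covered both strands of the 250 bases before and the 50 bases after each start, and 7 of the 10 genes had an entry in the promoter table. CCNE2, CCND1 and CDK2 did not. The E2F letters (TTTCCCGC, TTTGGCGC, TTTCGCGC or TTTGCCGC) were found in CDC25A, starting at position -44 from the start site, and in 3.33% of all 27305 windows. The E-box, which reads the same on both strands, began at -216, -196 and -101 in CDK4 and at 31 in CDK6, and 7.43% of all windows hold one. The heat shock element (GAANNTTC or TTCNNGAA) was found in CDKN2D at -201, as GAAGTTTC, and in 13.7% of all windows. These are letter matches, not measured sites. The windows of CCNE1, CCND3 and CDKN1B held none of the 3 motifs. Only the first listed window of each gene was searched, so any other start sites were not covered.

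Counted reads per library ran from 15507896 to 34387618, lowest in WT recovery and highest in KO heat shock. FBXW7 itself, the targeted gene, was measured at 33.5 and 31.4 CPM (read counts relative to the library total, scaled by TMM factors) in WT heat shock, 23.0 and 21.7 in WT recovery, 17.4 and 14.9 in KO heat shock, and 14.0 and 13.8 in KO recovery. It was lower in KO than in WT by a log2 difference of -1.01 ± 0.10 (standard error) upon heat shock, adjusted p = 1.9e-06, and of -0.68 ± 0.11 after recovery, adjusted p = 8.0e-05. Transcripts thus remained in KO, and since the deleted part of the gene is not given, reads outside it say nothing about the knockout. The summed level of 11 epithelial and colon markers lay between 2117 and 3185 CPM, led by KRT8, with CDX1 at 0 in 3 of the 4 groups. The 9 fibroblast markers summed to between 30.9 and 44.2 CPM, most of it FN1, with LUM at 0 in every group and DCN and COL1A2 at 0 in 3. The 9 immune and erythroid markers summed to between 16.8 and 30.7 CPM, nearly all of it CD68, with CD3E at 0 throughout.

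The question of the recovery comparisons is which of the 10 genes moved in the 2 h after the heat and whether the FBXW7 KO line moved alike. In WT, CDC25A, CCND1, CCND3 and CCNE1 fell and CDKN1B rose. In KO, CDK4, CCND3 and CCNE1 rose, and CDK6, CDKN1B and CDK2 fell. CCNE1, CCND3 and CDKN1B thus passed the test in both lines with opposite signs. The share of all genes with this pattern was not counted. Calls are genes with a Benjamini-Hochberg adjusted p under 0.05 in edgeR's quasi-likelihood test over all 17471 genes tested. All 10 genes passed the filter on low counts.

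Against the background of all genes, the WT counts were 1 of 10 higher, where 24.8% of all genes tested were, and 4 of 10 lower, where 26.0% were. The KO counts were 3 higher, against 20.6% of all genes, and 3 lower, against 21.1%. The difference between the KO and WT responses passed for 8 of the 10 genes, 5 with a positive difference and 3 with a negative one, where 28.5% and 27.8% of all genes did. Median log2 changes of the 10 genes were -0.07 in WT recovery and -0.02 in KO recovery, beside 0.01 and -0.02 over all genes. The median difference of responses was 0.48, beside -0.03. Of the 6 KO recovery calls, those of CCNE1, CDK2 and CDKN1B were lost on leaving out replicate 1 of either KO group. Either way the KO change then rests on the second matched pair alone, so these are not 2 separate checks. The changes kept their direction, at 0.38 and 0.41 for CCNE1, -0.39 and -0.36 for CDK2, and -0.39 and -0.37 for CDKN1B. With offsets for GC content and length the WT recovery calls numbered 8 in place of 5, adding CCNE2, CDK2 and CDK4.

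**Figure D1:**
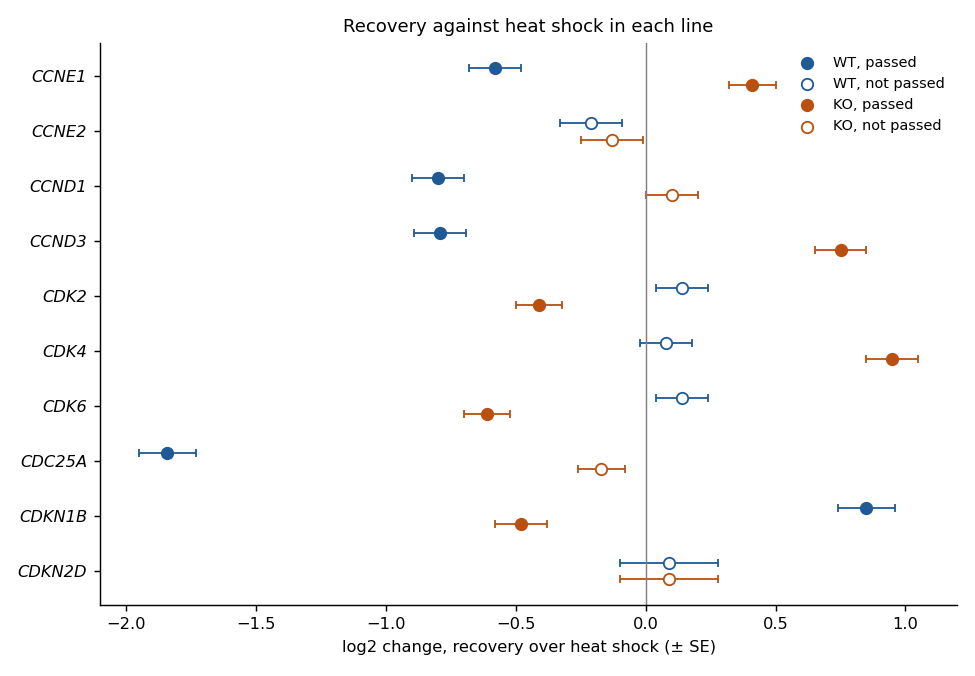
Log2 change from heat shock to recovery (horizontal axis) of each gene (vertical axis) in WT (blue) and KO (orange), with bars of 1 standard error and filled points for adjusted p under 0.05. CCNE1, CCND3 and CDKN1B have filled points on opposite sides of 0, and CDC25A in WT lies furthest from 0 at -1.84.

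CDC25A (ENSG00000164045, chromosome 3, 48157146 to 48188402, minus strand, GRCh38) had the largest recovery change of the 10 genes. It stood at 41.4 and 38.8 CPM in the WT heat shock libraries and at 11.4 and 10.9 CPM in WT recovery. In KO the values were 73.9 and 71.3 CPM upon heat shock and 63.8 and 64.8 CPM after recovery. The 4 groups did not overlap, and the WT recovery libraries, with 188 and 184 reads, were far below all others. The WT change was -1.84 ± 0.11 on the log2 scale, 3.59-fold lower, adjusted p = 3.5e-10. The KO change of -0.17 ± 0.09 did not pass, adjusted p = 0.127, but passed with offsets for GC content and length at -0.22, adjusted p = 0.0274. Responses differed between the lines by 1.67 ± 0.14, adjusted p = 2.4e-08. The level in KO was 1.81-fold that in WT upon heat shock, a log2 difference of 0.86 ± 0.08, adjusted p = 1.1e-06. After recovery it was 5.75-fold, 2.52 ± 0.10, adjusted p = 1.1e-10. The leave-one-out fits gave WT changes between -1.86 and -1.84. Only the fits without a WT library could move it much, and each of those rests on 1 WT pair.

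CCNE1 (ENSG00000105173, chromosome 19, 29811898 to 29824308, plus strand), which encodes cyclin E1, fell in WT recovery and rose in KO recovery. Its levels were 31.4 and 28.7 CPM in WT heat shock and 21.5 and 18.8 CPM in WT recovery. KO heat shock gave 48.7 and 47.0 CPM, and KO recovery 65.9 and 61.3 CPM, the highest. No 2 groups overlapped. The WT change was -0.58 ± 0.10, adjusted p = 1.5e-04. The KO change was 0.41 ± 0.09, adjusted p = 0.0014. It missed the threshold on the second KO pair alone, at 0.38 without KO heat shock replicate 1 and 0.41 without KO recovery replicate 1. With GC and length offsets the KO change was 0.23, adjusted p = 0.0235. The difference of responses was 0.99 ± 0.14, adjusted p = 7.7e-06, and 0.62 with those offsets. KO exceeded WT by 0.67 ± 0.09 upon heat shock, adjusted p = 3.3e-05, and by 1.66 ± 0.10 after recovery, 3.16-fold, adjusted p = 5.8e-09.

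CCNE2 (ENSG00000175305, chromosome 8, 94879770 to 94896678, minus strand) encodes the paralogue cyclin E2 and was ordered the other way between the lines. It was measured at 29.5 and 33.2 CPM in WT heat shock, 28.6 and 25.5 CPM in WT recovery, 19.4 and 18.4 CPM in KO heat shock, and 15.7 and 18.8 CPM in KO recovery. All 4 KO libraries were below all 4 WT libraries. The KO to WT difference was -0.73 ± 0.11 upon heat shock, adjusted p = 6.7e-05, or -1.27 with GC and length offsets, and -0.65 ± 0.12 after recovery, adjusted p = 2.0e-04. Neither recovery change passed (-0.21 ± 0.12 in WT, adjusted p = 0.141, and -0.13 ± 0.12 in KO, adjusted p = 0.39). The WT change did pass at -0.41 without WT heat shock replicate 1, at -0.40 without WT recovery replicate 1, and at -0.43 with GC and length offsets. The difference of responses, 0.08 ± 0.17 with adjusted p = 0.715, was 0.68 with those offsets, adjusted p = 3.8e-04. CCNE2 shares 1629 exonic bases with INTS8 on the other strand, and the deposited INTS8 counts averaged 1862 beside 517 for CCNE2. The libraries were strand-specific, but the sources used here do not name the strand setting of the counting, and reads of overlapping partners may not have been told apart. The KO to WT difference of INTS8 was 0.02 ± 0.08 upon heat shock, beside -0.73 for CCNE2, and -0.48 ± 0.08 after recovery, adjusted p = 1.4e-04, beside -0.65 for CCNE2. INTS8 changed by -0.30 ± 0.09 in KO recovery, adjusted p = 0.0131, beside -0.13 for CCNE2. The part of INTS8 reads in the CCNE2 counts was not tested.

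CCND1 (ENSG00000110092, chromosome 11, 69641087 to 69654474, plus strand), the D-type cyclin induced by growth signals, fell in WT recovery, and its change in KO recovery did not pass. It had 530 and 495 CPM in WT heat shock and 300 and 290 CPM in WT recovery. The KO libraries had 540 and 578 CPM upon heat shock and 631 and 565 CPM after recovery. WT recovery was the low group, and the 2 KO groups overlapped. The WT change was -0.80 ± 0.10, 1.74-fold lower, adjusted p = 3.9e-06, and the KO change was 0.10 ± 0.10, adjusted p = 0.477. The difference between these responses was 0.89 ± 0.14, adjusted p = 3.3e-05. KO and WT did not differ past the threshold upon heat shock (0.13 ± 0.09, adjusted p = 0.226), while after recovery KO was 2.03-fold higher, 1.02 ± 0.09, adjusted p = 1.9e-07. ORAOV1 overlaps CCND1 on the other strand by 497 exonic bases, averaged 2166 counts beside 11696 for CCND1, and had similar values: -0.88 ± 0.11 in WT recovery and 1.26 ± 0.11 between KO and WT after recovery. Shared reads as a source of this likeness were not tested.

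CCND3 (ENSG00000112576, chromosome 6, 41934933 to 42050357, minus strand), which encodes cyclin D3, fell in WT recovery and rose in KO recovery. Its libraries gave 46.3 and 41.2 CPM in WT heat shock, 27.2 and 23.3 CPM in WT recovery, 20.2 and 21.4 CPM in KO heat shock, and 35.9 and 34.3 CPM in KO recovery. No groups overlapped, with WT heat shock highest and KO heat shock lowest. The changes were -0.79 ± 0.10 in WT, adjusted p = 4.7e-06, and 0.75 ± 0.10 in KO, adjusted p = 9.7e-06. Offsets for GC content and length brought these to -0.44 and 0.51, both past the threshold. The responses differed by 1.55 ± 0.14, adjusted p = 6.9e-08, or by 0.95 with the offsets. Upon heat shock CCND3 was 2.10-fold lower in KO, -1.07 ± 0.10, adjusted p = 9.8e-07. After recovery it was higher in KO by 0.47 ± 0.10, adjusted p = 0.00113, a call that was lost with the offsets at 0.16, adjusted p = 0.105.

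**Figure D2:**
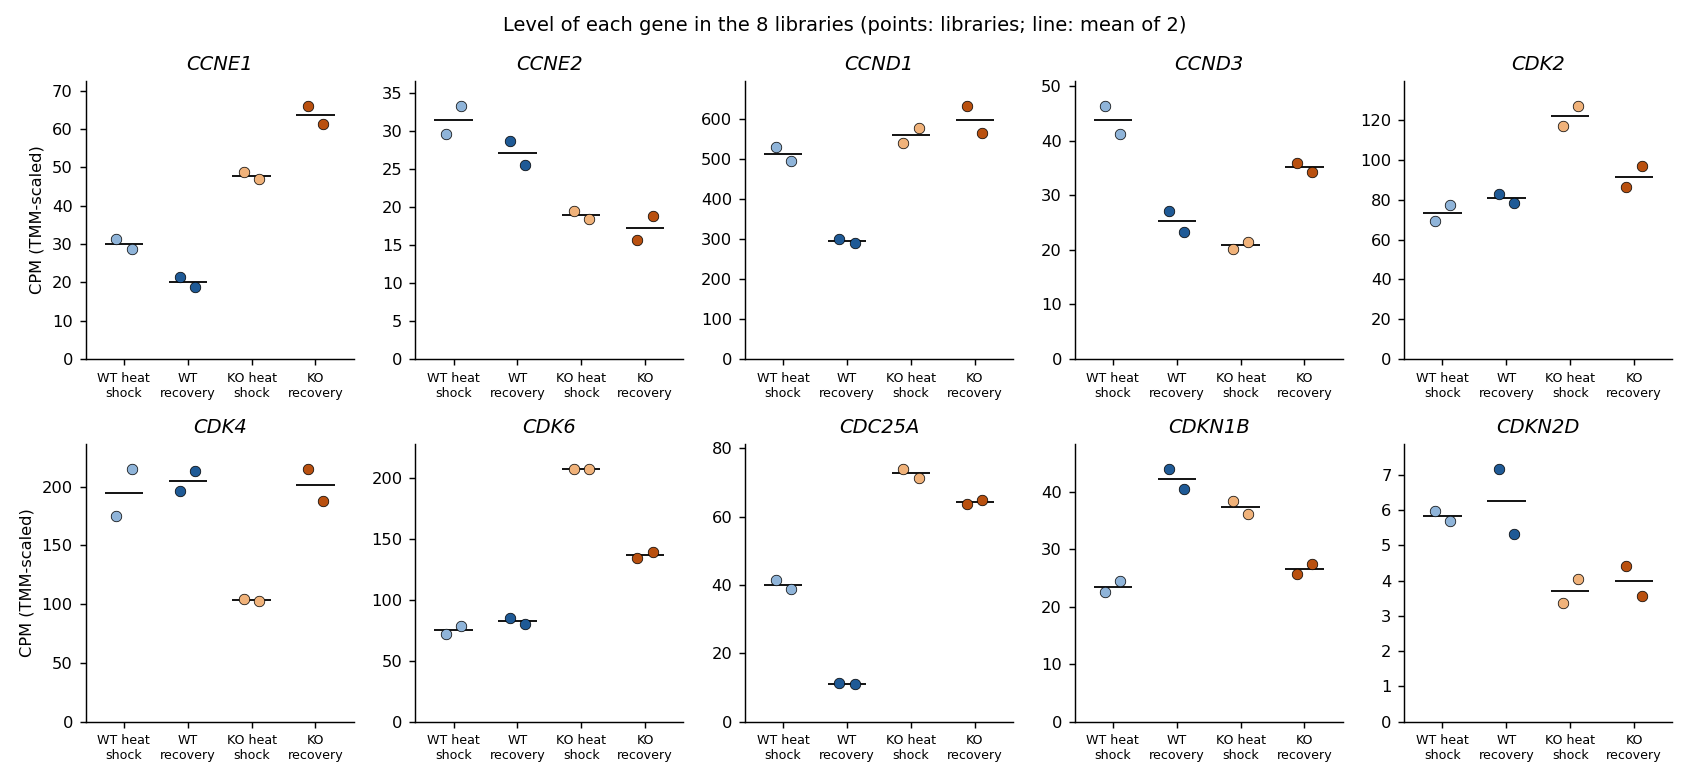
Level of each of the 10 genes in CPM (vertical axes, each starting at 0 with its own scale) in the 4 groups; points are libraries and lines are means of 2. CDC25A and CCND1 are lowest in WT recovery, CCNE1 is highest in KO recovery at 65.9 and 61.3 CPM, and CDK4 is lowest in KO heat shock.

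The 3 kinases did not pass the test in WT recovery, and each passed it in KO. CDK4 (ENSG00000135446, chromosome 12, 57747727 to 57756013, minus strand) had 175 and 215 CPM in WT heat shock, 196 and 213 CPM in WT recovery, 104 and 103 CPM in KO heat shock, and 215 and 188 CPM in KO recovery. KO heat shock alone was low, and the other 3 groups overlapped. The KO change was 0.95 ± 0.10, 1.94-fold higher, adjusted p = 4.5e-07, beside 0.08 ± 0.10 in WT, adjusted p = 0.537, or 0.30 with GC and length offsets, adjusted p = 0.00496. The difference of responses, 0.88 ± 0.14 with adjusted p = 2.6e-05, was 0.46 with the offsets, adjusted p = 0.00241. CDK4 was lower in KO than in WT by -0.91 ± 0.10 upon heat shock, adjusted p = 5.4e-06, and the difference after recovery was -0.02 ± 0.10, adjusted p = 0.848. TSPAN31 shares 1369 exonic bases with CDK4 on the other strand, averaged 2892 counts beside 3823, and changed by 1.20 ± 0.10 in KO recovery and by -1.09 ± 0.13 between KO and WT upon heat shock. The share of CDK4 counts that came from TSPAN31 reads was not tested.

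CDK6 (ENSG00000105810, chromosome 7, 92604921 to 92836594, minus strand), the other partner of D-type cyclins, went the other way in KO. It was at 71.9 and 78.1 CPM in WT heat shock, 85.0 and 79.9 CPM in WT recovery, 207 CPM in both KO heat shock libraries, and 134 and 139 CPM in KO recovery. Every KO library was above every WT library. The KO change was -0.61 ± 0.09, adjusted p = 4.6e-05, and the WT change 0.14 ± 0.10, adjusted p = 0.25. KO exceeded WT by 1.47 ± 0.08 upon heat shock, 2.76-fold, adjusted p = 6.9e-09, and by 0.72 ± 0.08 after recovery, adjusted p = 3.1e-06. CDK6 has the longest transcript of the 10, at 11612 bases. The 745 coding genes within 25% of that length had a median KO recovery change of -0.20, and with GC and length offsets the CDK6 change was -0.21, adjusted p = 0.036. Its difference of responses, -0.74 ± 0.13 with adjusted p = 1.2e-04, did not pass with those offsets (-0.22, adjusted p = 0.114). Differences between the lines kept their calls with offsets, at 1.07 and 0.85.

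CDK2 (ENSG00000123374, chromosome 12, 55966769 to 55972784, plus strand), the partner of cyclin E, moved like CDK6 but by less. Its values were 69.2 and 77.3 CPM in WT heat shock, 83.1 and 78.4 CPM in WT recovery, 117 and 127 CPM in KO heat shock, and 86.2 and 97.2 CPM in KO recovery. KO heat shock was the high group. The KO change was -0.41 ± 0.09, adjusted p = 0.00146. It missed the threshold on the second KO pair alone, at -0.39 without KO heat shock replicate 1 and -0.36 without KO recovery replicate 1. The WT change was 0.14 ± 0.10, adjusted p = 0.228, and passed at 0.38 with GC and length offsets and at 0.24 with upper-quartile scaling. The difference of responses was -0.56 ± 0.13, adjusted p = 0.00157, or -0.91 with the offsets. KO was higher by 0.74 ± 0.09 upon heat shock, adjusted p = 1.1e-05. After recovery the difference was 0.18 ± 0.09, adjusted p = 0.0941, and passed without the low-count filter at 0.27 and without WT heat shock replicate 1 or 2 at 0.19. CDK2 shares 565 exonic bases with RP11-973D8.4 and 89 with PMEL on the other strand, which averaged 252 and 136 counts beside 2204. RP11-973D8.4 had values like those of CDK2: its KO to WT difference upon heat shock was 0.72 ± 0.17, adjusted p = 0.00196, and its difference of responses -0.54 ± 0.22, adjusted p = 0.0447. No comparison of PMEL passed. Shared reads were not tested.

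CDKN1B (ENSG00000111276, chromosome 12, 12715058 to 12722371, plus strand), the inhibitor of cyclin E-CDK2, was the mirror of CCNE1 within each line: it rose in WT recovery and fell in KO recovery. It had 22.5 and 24.5 CPM in WT heat shock and 44.0 and 40.6 CPM in WT recovery. KO heat shock gave 38.5 and 36.1 CPM, and KO recovery 25.8 and 27.5 CPM. None of the groups overlapped. The WT change was 0.85 ± 0.11, 1.80-fold higher, adjusted p = 3.7e-06. In KO it was -0.48 ± 0.10, adjusted p = 9.3e-04. That call was lost on the second KO pair alone, at -0.39 without KO heat shock replicate 1 and -0.37 without KO recovery replicate 1. Responses differed by -1.33 ± 0.15, adjusted p = 5.7e-07. KO was higher than WT upon heat shock by 0.67 ± 0.10, adjusted p = 3.9e-05, and lower after recovery by -0.67 ± 0.09, adjusted p = 2.7e-05.

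CDKN2D (ENSG00000129355, chromosome 19, 10566462 to 10569059, minus strand), an inhibitor of CDK4 and CDK6, was the least abundant of the 10, with 90 to 143 reads per library. It was at 5.99 and 5.69 CPM in WT heat shock, 7.17 and 5.34 CPM in WT recovery, 3.37 and 4.06 CPM in KO heat shock, and 4.42 and 3.58 CPM in KO recovery. Heat shock and recovery overlapped within each line, and all KO libraries were below all WT libraries. The recovery changes were 0.09 ± 0.19 in both lines, adjusted p = 0.72 in WT and 0.749 in KO, so a change within that error was not detectable at this depth. KO was lower than WT by -0.64 ± 0.18 upon heat shock, adjusted p = 0.00858, and by -0.65 ± 0.19 after recovery, adjusted p = 0.00845. The first call was lost with GC and length offsets (-0.23, adjusted p = 0.274) and without KO heat shock replicate 1 (-0.52, adjusted p = 0.0689). The second was lost without WT recovery replicate 1 (-0.43, adjusted p = 0.138) or KO recovery replicate 2 (-0.49, adjusted p = 0.0837).

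The direct comparison of the lines asks how the KO differed at each sampling. Upon heat shock CDK6, CDC25A, CDK2, CCNE1 and CDKN1B were higher in KO, and CCND3, CDK4, CCNE2 and CDKN2D were lower. These are 5 of 10 higher, where 27.4% of all genes were, and 4 of 10 lower, where 28.2% were. After recovery CDC25A, CCNE1, CCND1, CDK6 and CCND3 were higher and CDKN1B, CCNE2 and CDKN2D lower, 5 and 3 of 10 beside 31.8% and 31.3% of all genes. CCND3 and CDKN1B thus passed at both samplings with opposite signs, a pattern whose share among all genes was not counted. Some epithelial and colon markers moved with the same contrast, set beside the same shares of all genes. Of 10 tested, 1 was higher and 6 lower in KO upon heat shock, and 2 were higher and 6 lower after recovery. CLDN4, a tight junction protein, was at -2.41 ± 0.10 and -2.23 ± 0.09, CLDN3 at -1.44 ± 0.15 and -1.96 ± 0.15, and the adhesion protein CDH1 at -0.66 ± 0.08 and -1.30 ± 0.08, upon heat shock and after recovery in turn. Others followed in part or not at all. KRT19 did not pass upon heat shock (0.03 ± 0.08) and was higher in KO after recovery at 0.61 ± 0.08. KRT8 and KRT18 were lower in KO upon heat shock, at -0.62 ± 0.10 and -1.13 ± 0.10. After recovery they did not pass (0.04 ± 0.10 and -0.08 ± 0.10). EPCAM did not pass upon heat shock (0.14 ± 0.09) and was lower after recovery at -0.44 ± 0.09. ESRP1 was lower after recovery at -1.82 ± 0.09. The part of these markers in the differences of the 10 genes was not tested. Medians over the 10 genes were 0.40 upon heat shock and 0.33 after recovery, beside -0.03 and -0.01 over all genes. The comparisons between the lines use the same libraries as the recovery comparisons and their difference, so the former are not independent of the latter. In the KO to WT comparison after recovery, upper-quartile scaling moved the median of all genes to -0.18 and left 4212 genes higher and 6852 lower, where TMM gave 5562 and 5464. In WT recovery it gave 5303 higher and 3686 lower beside 4334 and 4540. The 10 genes' calls between the lines kept their direction under that scaling.

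**Figure D3:**
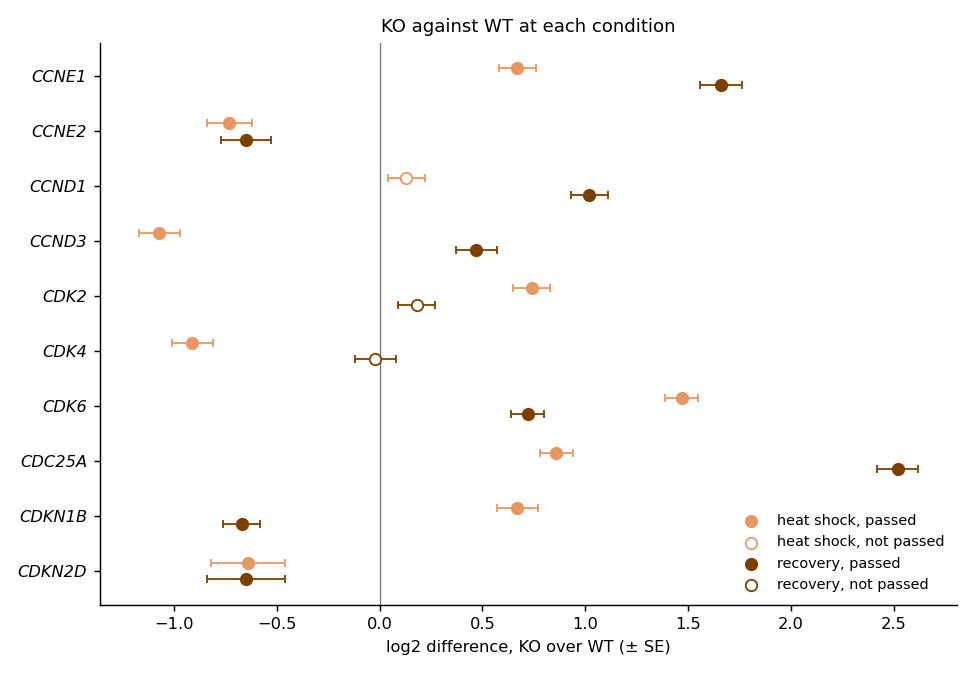
Log2 difference of KO over WT (horizontal axis) for each gene (vertical axis) upon heat shock (light) and after recovery (dark), with bars of 1 standard error and filled points for adjusted p under 0.05. CDC25A after recovery is furthest to the right at 2.52, and CCND3 and CDKN1B change sides between the samplings.

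Per kilobase of merged exons, CCND1 and CDK4 had the highest group means of the 10 mRNAs in every group. CCND1 stood at 106 CPM per kb in the heated WT libraries, and in KO at 116 upon heat shock and 124 after recovery. In WT recovery CDK4, at 64.6 CPM per kb, and CCND1, at 61.1, were not separated by their libraries. CDK2 lay between 18.8 and 31.4 CPM per kb in the 4 groups. CDC25A moved furthest in this order, from the fifth place in WT heat shock, KO heat shock and KO recovery (9.74, 17.6 and 15.6 CPM per kb) to the last in WT recovery (2.71). CDKN2D held the last place in the other 3 groups, at 2.47 to 3.89. Neighbours that overlapped were CCND3 and CCNE2 in WT heat shock, CCND3 and CDKN2D in WT recovery, CDK4 and CDK2 in KO heat shock, and CCNE1 and CDK2 in KO recovery. Across the 4 groups the ratio of the highest to the lowest group mean was 6.5 for CDC25A, 3.16 for CCNE1 and 2.76 for CDK6, and between 1.67 and 2.11 for the other 7.

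Ratios between partners, also per kilobase, separated all 4 groups for CCNE1 over CCNE2 and only some groups for the others. Their size, like the order above, rests on the merged exon length. For CCND3 this is 5802 bases, beside 2394 for its longest transcript. CCNE1 over its inhibitor CDKN1B was 1.54 and 1.29 in WT heat shock and 0.537 and 0.51 in WT recovery. In KO it was 1.39 and 1.43 upon heat shock and 2.82 and 2.45 after recovery. The 2 lines thus overlapped upon heat shock and were furthest apart after recovery. CCNE1 over CCNE2 was between 1.27 and 1.84 in the WT libraries, and in KO 4.33 and 4.39 upon heat shock and 7.23 and 5.63 after recovery. CDK6 over CDK4 was between 0.0938 and 0.112 in WT, 0.512 and 0.52 in KO heat shock, and 0.161 and 0.191 in KO recovery. CCND1 over CCND3 was between 13.2 and 15 in all WT libraries, where both fell alike, and 32.2 and 32.4 in KO heat shock and 21.1 and 19.8 in KO recovery. These ratios are descriptions of levels, with no test.

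Some of the 10 genes followed each other over the 8 libraries. On log2(CPM + 1), Pearson's r was 0.97 for CCND1 with CDC25A, 0.96 for CDK2 with CDK6, 0.91 for CCNE1 with CDC25A, and 0.89 for CCNE1 with CCND1. The most opposed pairs were CCND3 with CDKN1B at -0.89, CDK6 with CDKN2D at -0.86, CDK2 with CDK4 at -0.84 and CCNE1 with CCNE2 at -0.83. The 8 libraries fall into 4 groups, so such values describe group patterns. Among 8504 genes with a mean of at least 10 CPM, the 3 most like CDC25A were ZWINT (0.9991), a kinetochore protein, POLR3B (0.9985), a subunit of RNA polymerase III, and AKAP17A (0.9973). Group means of ZWINT were 92.2 and 40.8 CPM in WT, heat shock before recovery, and 144 and 128 CPM in KO. Among the most like CCND1 were PCNA (0.9970), the sliding clamp of DNA replication, and KPNA2 (0.9963), an importin. Those of PCNA were 269 and 159 CPM in WT and 290 and 323 CPM in KO. For CCNE1 they were AKR7A2 (0.9968), LRRC47 (0.9950) and NADK (0.9936), and for CDKN1B TMEM161B (0.9917), KIAA1430 (0.9906) and PRKCI (0.9904). A high r was common: 446 of the genes had r over 0.95 with CDC25A, 508 with CCND1, 267 with CCNE1 and 151 with CDKN1B.

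Of 40 other genes of the G1 machinery, 38 were tested. In WT recovery 16 rose and 14 fell, where 24.8% and 26.0% of all genes did, with a median of -0.02 beside 0.01 over all genes. CCNG2, an unusual cyclin tied to cell cycle exit, rose by 2.45 ± 0.13, adjusted p = 1.3e-10. MYC, a substrate of FBXW7 and a driver of G1 progression, fell (-1.59 ± 0.10, adjusted p = 9.9e-10). E2F1 fell by 1.05 ± 0.11 and E2F8 by 1.00 ± 0.10 on the log2 scale. In KO recovery 9 rose and 16 fell, beside 20.6% and 21.1% of all genes, with a median of -0.11. CKS1B, which helps SKP2 recognise p27, rose by 0.88 ± 0.09, and MYC rose by 0.76 ± 0.10. RB1 (-0.77 ± 0.09) and CCNC (-0.79 ± 0.10) fell. Responses of MYC differed between the lines by 2.34 ± 0.14, adjusted p = 4.6e-10, and those of CCNG2 by -2.54 ± 0.19, adjusted p = 6.5e-09. Upon heat shock 18 of the 38 were higher and 6 lower in KO, where 27.4% and 28.2% of all genes were, or 16 and 10 without WT heat shock replicate 1. Those with the lowest p were MYC at -1.19 ± 0.09, CABLES2 at -1.50 ± 0.13, CDC25B at -0.85 ± 0.08 and CCNA2 at 0.85 ± 0.08. After recovery 17 were higher and 17 lower, beside 31.8% and 31.3% of all genes, led by CCNG2 (-2.45 ± 0.14), TFDP2 (-1.41 ± 0.10), CKS2 (1.52 ± 0.11) and MYC (1.15 ± 0.09). On leaving out replicate 1 of either KO group, the KO recovery calls were fewer in both directions, as they were over all genes.

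E2F factors switch on genes of DNA replication, and CDC25A and cyclin E are themselves known E2F targets. Of 32 such S phase genes, all tested, 27 fell in WT recovery and 0 rose in edgeR's test, where 26.0% of all genes fell and 24.8% rose, and the median was -0.74. At an unadjusted p under 0.05, 28 fell and 0 rose, where 9876 of all 17471 genes changed either way. DESeq2 called 25 lower and 0 higher, where it called 3238 and 2906 of all genes. They included UHRF1 (-1.47 ± 0.10), MCM2 (-1.37 ± 0.10) and MCM5 (-1.40 ± 0.12), of which the MCM proteins form the replicative helicase, and FEN1 (-1.23 ± 0.10), the flap nuclease. In KO recovery 7 rose and 6 fell, near the 20.6% and 21.1% of all genes, with a median of -0.01. TK1, thymidine kinase, rose by 0.78 ± 0.10 and MCM2 by 0.58 ± 0.10, while PRIM1 (-0.58 ± 0.10), the primase subunit, fell. The difference of responses was positive for 23 and negative for 3, where 28.5% and 27.8% of all genes were, with a median of 0.78. KO exceeded WT after recovery for 28 of the 32, beside 31.8% of all genes, and 0 were lower by edgeR, beside 31.3%. DESeq2 also called 0 lower, where it called 4849 of all 17471 genes lower. At an unadjusted p under 0.05, 1 was lower, where 11635 of all genes differed either way. Among the higher were MCM10 at 1.67 ± 0.08, CDC6 at 1.46 ± 0.09, FEN1 at 1.40 ± 0.08 and CHAF1A at 1.30 ± 0.08. Upon heat shock 12 were higher and 10 lower, beside 27.4% and 28.2% of all genes, with TK1 at -1.20 ± 0.09 and MCM3 at -0.74 ± 0.09 lower and RRM2 at 0.55 ± 0.08 higher. Under upper-quartile scaling 25 fell in WT recovery, where 3686 of all 17471 genes did. With the same scaling 25 were higher and 1 lower in KO after recovery, where 4212 and 6852 of all genes were. The KO recovery calls were fewer in both directions without replicate 1 of either KO group, as they were over all genes.

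**Figure D4:**
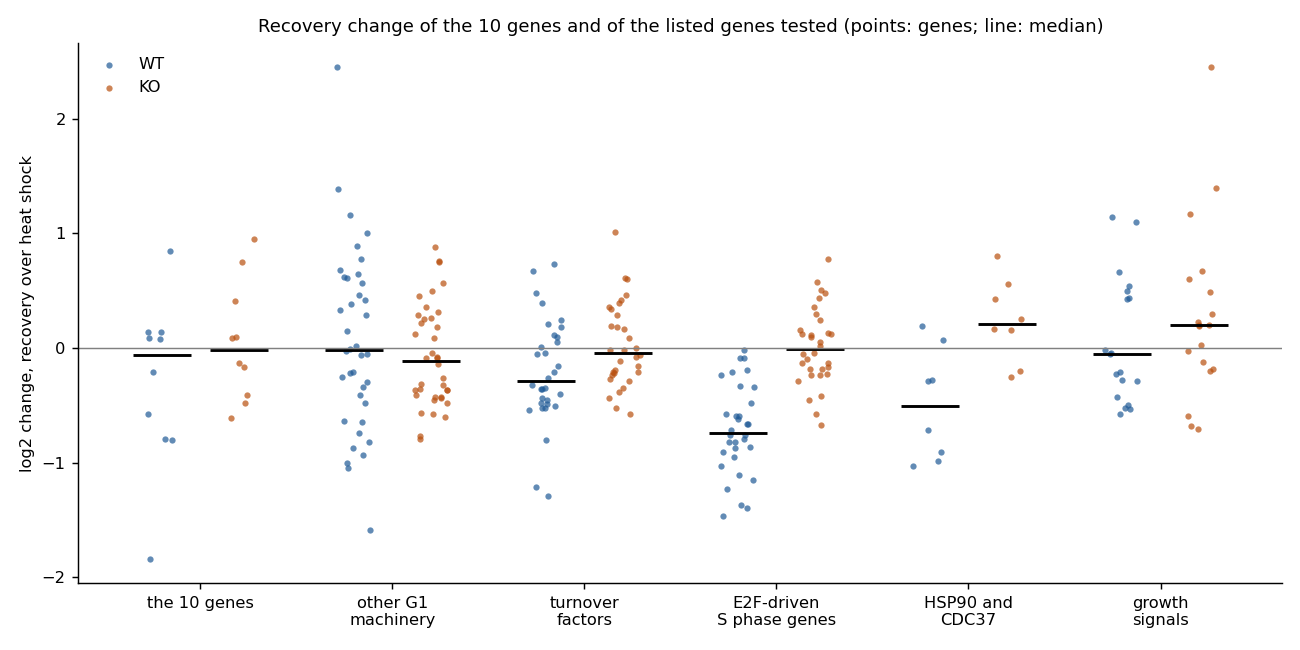
Log2 change from heat shock to recovery (vertical axis) of the 10 genes and of the tested genes of 5 lists (horizontal axis), WT in blue and KO in orange, with a line at each median. The E2F-driven S phase genes lie below 0 in WT with a median of -0.74 and around 0 in KO with a median of -0.01.

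Factors that degrade or stabilise G1 cyclins, CDC25A and p27 numbered 33, of which 32 were tested. In WT recovery 5 rose and 17 fell, beside 24.8% and 26.0% of all genes, with a median of -0.29. FZR1, the activator of the anaphase-promoting complex in G1, changed by -1.29 ± 0.11, FBXO31, a receptor for cyclin D1, by -1.21 ± 0.12, and DTL, a CUL4 receptor active in S phase, by -0.80 ± 0.09, while CUL4B rose by 0.67 ± 0.10. FBXW7 fell in WT recovery (-0.54 ± 0.11, adjusted p = 4.1e-04). In KO recovery 9 rose and 6 fell, beside 20.6% and 21.1% of all genes, with a median of -0.04, led by RBX1, the RING subunit of SCF ligases, at 1.01 ± 0.13, RNF123 at 0.61 ± 0.10, FBXO31 at 0.60 ± 0.11 and USP37 at -0.52 ± 0.10. Without replicate 1 of either KO group fewer were called, all of them higher, and fewer of all genes were called too. KO was higher for 17 and lower for 7 upon heat shock, where 27.4% and 28.2% of all genes were, with a median of 0.24. With GC and length offsets these were 10 and 9, with a median of 0.06, beside 4257 and 4720 of all 17471 genes. After recovery KO was higher for 19 and lower for 5, beside 31.8% and 31.3% of all genes, or 16 and 2 without WT recovery replicate 2 and 15 and 3 without KO recovery replicate 1. SKP2, the receptor that targets p27, was higher in KO by 0.88 ± 0.09 upon heat shock and by 1.00 ± 0.09 after recovery. UBE2C (1.11 ± 0.08), DTL (1.07 ± 0.08) and FZR1 (1.19 ± 0.11) were also higher after recovery.

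CDK4 and CDK6 fold with the help of HSP90 and its kinase adaptor CDC37. Of 8 genes of this chaperone system, 6 fell and 0 rose in WT recovery by edgeR, beside 26.0% and 24.8% of all genes, with a median of -0.51. The counts were the same by DESeq2, which called 3238 of all 17471 genes lower and 2906 higher. They were also the same at an unadjusted p under 0.05, where 9876 of all genes changed either way. AHSA1 (-1.03 ± 0.12) and STIP1 (-0.99 ± 0.11), both cochaperones of HSP90, and CDC37 (-0.91 ± 0.12) led them, with the phosphatase PPP5C at -0.72 ± 0.11. Under upper-quartile scaling 4 fell and 1 rose, beside 3686 and 5303 of all genes. In KO recovery AHSA1 (0.80 ± 0.11), CDC37 (0.56 ± 0.12) and STIP1 (0.43 ± 0.10) rose and CDC37L1 fell (-0.25 ± 0.10, adjusted p = 0.0481). That is 3 higher and 1 lower, beside 20.6% and 21.1% of all genes. Without replicate 1 of either KO group fewer of this list were called in KO, all of them higher, and fewer of all genes were called too. The responses differed positively for 6 and negatively for 1, where 28.5% and 27.8% of all genes did, with AHSA1 at 1.83 ± 0.16. After recovery 7 of the 8 were higher in KO, beside 31.8% of all genes, among them AHSA1 at 1.44 ± 0.13 and STIP1 at 1.35 ± 0.10. Upon heat shock 2 were higher and 2 lower, near the 27.4% and 28.2% of all genes.

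Among 20 growth signal genes upstream of CCND1, 19 were tested. In WT recovery 7 rose and 6 fell, beside 24.8% and 26.0% of all genes. PIK3CA (1.10 ± 0.10), the EGFR ligand AREG (1.14 ± 0.15) and EGFR (0.54 ± 0.09) were among those that rose. The 6 that fell, as CCND1 did, were FOSL1 (-0.58), ETS2 (-0.53), FOS (-0.52), CTNNB1 (-0.50), MAPK3 (-0.43) and ERBB2 (-0.28). In KO recovery 7 rose and 3 fell, beside 20.6% and 21.1%. The immediate early genes EGR1 (2.45 ± 0.11) and FOS (1.40 ± 0.12) rose, as did AREG (1.17 ± 0.14), and PIK3CA fell (-0.68 ± 0.10). EGR1 responses differed by 2.68 ± 0.15, adjusted p = 2.1e-10. KO was higher for 6 and lower for 9 upon heat shock, beside 27.4% and 28.2% of all genes, with HBEGF at 1.16 ± 0.12 and TCF7L2 at -0.77 ± 0.09. After recovery it was higher for 5 and lower for 7, beside 31.8% and 31.3%, with EGR1 at 1.80 ± 0.12, HBEGF at 1.66 ± 0.12, FOSL1 at 1.47 ± 0.12 and ERBB3 at -1.01 ± 0.09. On leaving out 1 WT library in turn, between 4 and 9 fell in WT recovery.

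Gene length moved with the recovery changes in both lines, in opposite directions. Coding genes within 25% of the length of the CCNE1 transcript (2656 genes) had a median change of -0.12 in WT and 0.14 in KO. Those near CDKN2D, the shortest of the 10 at 1422 bases, had medians of -0.12 and 0.24, and those near CDK6 0.08 and -0.20. The offsets also cover GC content, and the parts of the 2 were not separated. For KO against WT upon heat shock, genes near the length of CCNE2 had a median of -0.02, while the offsets moved CCNE2 from -0.73 to -1.27. Whether RNA quality or the choice between poly-A selected and ribosome-depleted RNA, which the labels do not give per library, played a part was not tested. With offsets for GC content and length, the difference of responses was 1.38 for CDC25A, 0.71 for CCND1, 0.95 for CCND3, 0.62 for CCNE1, 0.46 for CDK4, -0.91 for CDK2 and -1.42 for CDKN1B, each past the threshold.

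The authors' deposited table gives a log2 fold change for each matched pair of libraries, scaled by total counts. In the authors' deposited table CDC25A had -1.721 and -1.687 in the 2 WT pairs and -0.377 and -0.22 in the KO pairs. For CCNE1 the authors' deposited table has -0.414 and -0.466 in WT and 0.271 and 0.301 in KO. CDKN1B stood at 1.107 and 0.871 in WT and -0.745 and -0.474 in KO in the authors' deposited table. The 2 pairs of a line had opposite signs in the authors' deposited table for CCNE2 in WT (0.094 and -0.237), CCND1 in KO (0.059 and -0.115) and CDKN2D in KO (0.227 and -0.266), and none of these changes passed here. Which count column holds the recovery library was read from the order of names in each deposited comparison and from the sign of its log2 ratio. If that order were wrong, every recovery direction given here would turn.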

How the data were processed

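RNA from 8 libraries was measured, 2 in each of 4 groups. Per the submitters' processing notes, CASAVA and TopHat and the human build hg19 were used, without versions or roles. The sources used here do not name the counting program. Per the labels' protocols, cDNA libraries were strand-specific (dUTP method) and read as single reads of 50 bases on an Illumina HiSeq 2000. The authors deposited whole-number read counts per Ensembl gene in 4 tables, 1 per matched pair of libraries. Per the file headers, the authors also gave a log2 fold change normalized by total counts, and q-values and p-values from their own test. The files hold no coordinates. Positions, lengths and overlaps come from GENCODE release 29 on GRCh38, which is not the authors' build, matched by Ensembl ID.

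From the counts, edgeR 4.0.16 in R 4.3.3 was fitted on all 8 libraries with TMM factors, the filterByExpr filter (17471 genes kept) and Benjamini-Hochberg adjustment at 0.05. Recovery changes and their difference used a model with matched pairs as blocks (2 residual degrees of freedom), because the series design text analyses matched pairs. KO against WT used group means (4 degrees of freedom). Standard errors were derived from edgeR's test, as the size of the log2 change over the square root of F. Deviations of same-numbered heat shock and recovery libraries from their group means correlated at -0.0152 in WT and -0.0122 in KO, so the pairing comes from the design text and is not visible in the values. The scripts were tested on simulated data. Replicates correlated at between 0.989 and 0.9934 (log2 CPM). The chi-square of the counts of 2 replicates, per degree of freedom, was 19 in WT heat shock and 2.43 in WT recovery. In KO it was 4.91 upon heat shock and 8.23 after recovery. Replicates thus differed unequally between groups, while all 4 groups share 1 estimate of the spread in the tests. Alternatives were RLE factors, upper-quartile scaling, no filter, a mean count of at least 50, DESeq2 1.42.0, offsets for GC content and length (known for 95.4% of tested genes), the other pairing, and leaving out each library. The number of libraries and the counting depth limit precision. The 10 genes and the gene lists were chosen with earlier results of these data known. Named from each list are up to 4 genes per comparison with the lowest p, plus FBXW7 and some genes that went the other way or did not pass. Likeness was ranked by Pearson's r over 8 libraries. A few genes that these rules name are not reported here.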

Additional observations from a re-analysis of the deposited data

Results flagged for a closer look

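The recovery response differed between KO and WT by a direct test of the difference for 8 of the 10 genes. Of all genes tested, 28.5% passed with a positive difference and 27.8% with a negative one. On the log2 scale the KO response minus the WT response was 1.67 for CDC25A, 1.55 for CCND3, 0.99 for CCNE1, 0.89 for CCND1 and 0.88 for CDK4. It was -1.33 for CDKN1B, -0.74 for CDK6 and -0.56 for CDK2. With offsets for GC content and length the CDK6 difference did not pass (-0.22, adjusted p = 0.114 in edgeR's test), that of CDK4 was 0.46, and that of CCNE2 passed at 0.68, adjusted p = 3.8e-04. For CCNE1, CCND3 and CDKN1B both matched pairs of WT moved one way and both of KO the opposite way. How many of all genes did so was not counted. For CDK2 and CDK6 the WT changes did not pass, and without WT heat shock replicate 1 that of CDK2 was -0.01.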

How the results depend on the processing

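Of 750 values of the 10 genes under alternatives, 699 kept their direction and their side of the threshold, 28 reversed, 11 gained a call and 12 lost one. Every reversed value was of a change that did not pass as reported. The WT recovery calls among the 10 genes numbered 8 with GC and length offsets and 5 as reported. The KO recovery calls ranged from 3 to 6 and the calls over all genes from 2838 to 8244 on leaving out single libraries, beside 7295 as reported and 4801 with DESeq2. The cause was not tested, other than that leaving out a KO library leaves fewer samples. With GC and length offsets, CCNE2 in KO recovery was 0.24, CDK2 between KO and WT after recovery -0.04, and CDKN2D in KO recovery -0.25. The CCNE2 difference of responses was -0.03 with upper-quartile scaling. Without the low-count filter, CDK4 between KO and WT after recovery was 0.06 and the CDKN2D difference of responses 0.07. On leaving out single libraries, CCNE2 ranged from -0.31 to 0.05 in KO recovery and from -0.10 to 0.29 in the difference of responses. CCND1 in KO recovery ranged from -0.03 to 0.22. In WT recovery CDK2 ranged from -0.01 to 0.28, CDK4 from -0.04 to 0.17 and CDKN2D from -0.12 to 0.27. CDK4 between KO and WT after recovery ranged from -0.12 to 0.08. CDKN2D ranged from -0.18 to 0.39 in KO recovery and from -0.27 to 0.31 in the difference of responses. In the paired design, fits with no replicate block called 9045 genes in WT recovery, 7399 in KO recovery and 9999 for the difference of responses. Between the lines, a replicate block gave 9656 upon heat shock and 11013 after recovery. Neither choice changed a call of the 10 genes. Where leaving out a library leaves 1 in a group, the spread is taken from the other libraries. In the paired fits for recovery, a library left without its partner adds nothing to the change, which then rests on the other pair alone. With CPM over raw column totals, 13 of 40 group means moved by more than 1 SD.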
